A study of Mus musculus with 63 samples.

Results

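Small intestinal tumours profiled by bulk RNA sequencing were examined for 8 genes whose level was higher in clones dissected out of heterotypic tumours than in tumours sequenced undivided: *Otof*, *Pnoc*, *Igfbp2*, *Bcat1*, *Stc2*, *Fndc1*, *Mgarp* and *Mfsd12*. They are 8 of 24766 genes in the deposited table and were selected on that same contrast in these libraries. Their differences between clones and undivided tumours are therefore given as a description, without a test, and support nothing further. For the 8 genes, tests are given only for what the selection did not use: major against minor clones, the 2 mice, the interaction of division with mouse, intestinal segments, and the sharing of a level by both clones of a tumour. Other genes, from lists of related pathways and cell types, are tested in the fits against undivided tumours too.

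All 63 libraries came from 2 mice, 1 female and 1 male, of genotype Apchet (Villin-creERT2; Apc fl/+; R26R-Confetti) and treated with ENU. Each mouse was at least 8 weeks old at induction, received 4 mg tamoxifen, which removes 1 *Apc* allele across the Villin-expressing epithelium and switches on the Confetti reporter in scattered crypts, and was given the mutagen ENU (200 mg per kg) 10 days later. The control tumours carry all of these alleles and treatments too. From 20 heterotypic tumours (tumours of several Confetti colours, or of a colour beside unlabelled glands), 10 per mouse, a major clone, the larger, and a minor clone were separated under the microscope, giving 40 libraries, and 23 tumours were sequenced undivided, 10 of the female and 13 of the male mouse. Which of the undivided tumours were monoclonal is not stated in the labels, and the study's comparison used fewer monoclonal tumours than there are undivided libraries, so some of these may lie outside it. Mouse and sex cannot be told apart, and any effect of the dissection itself cannot be told apart from the grouping.

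The 8 genes have varied textbook roles, and a pair of them act on insulin-like growth factors. *Pnoc* encodes prepronociceptin, the precursor of the opioid-like peptide nociceptin. *Igfbp2* encodes a secreted protein that binds insulin-like growth factors, and *Stc2* encodes stanniocalcin 2, a secreted glycoprotein that restrains the protease PAPP-A and so the release of these growth factors from their binding proteins. *Otof* encodes otoferlin, a calcium-binding ferlin known for synaptic vesicle release in inner hair cells. *Fndc1* encodes a protein with fibronectin type III domains. *Bcat1* encodes the cytosolic branched-chain aminotransferase, *Mgarp* a mitochondrial protein linked to hypoxia and steroid-producing tissues, and *Mfsd12* a transporter of lysosomes and melanosomes that is needed for cysteine import. The scales below are not divided by gene length, so levels are compared between samples and not between genes.

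On GRCm39 the genes lie on 8 chromosomes, so no pair of them are neighbours. *Igfbp2* spans chr1:72863606-72891634 on the plus strand, *Mgarp* chr3:51295833-51304178 on the minus strand and *Otof* chr5:30524406-30619324 on the minus strand. *Bcat1* spans chr6:144939556-145022254 on the minus strand, *Mfsd12* chr10:81193281-81202067 on the plus strand and *Stc2* chr11:31307307-31320124 on the minus strand. *Pnoc* spans chr14:65638122-65663196 and *Fndc1* chr17:7956510-8046177, both on the minus strand. All 8 are annotated as protein-coding, and values cover the whole gene.

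Promoter sequence (250 bases before to 50 after a start site, RefSeq, build GRCm38.p6) was at hand for 6 of the 8 genes, in 8 entries. *Otof* and *Pnoc* had no entry. The entries were searched on both strands for 5 short motifs. The E-box, bound by MYC and USF, was searched as CACGTG and was in 7.15% of 32851 promoters of this length. The core of the hypoxia response element was searched as ACGTG, which also lies inside the E-box, and was in 19.6%. The motif of TCF and LEF factors was searched in a T form, CTTTGAT, held by 3.73%, and in an A form, CTTTGAA, held by 5.14%. The amino acid response element of ATF4 was searched as TGATGNAAT and was in 0.965%. The E-box occurred in 1 *Igfbp2* entry, the hypoxia core inside that E-box, in *Mgarp* and in 1 of 2 *Bcat1* entries, and the T form of the TCF motif in the other *Bcat1* entry. The A form and the ATF4 element occurred in none of the 8 entries, and *Stc2*, *Fndc1* and *Mfsd12* held none of the 5 motifs. Entries with a match are printed 5′ to 3′, since the gene lists below bear on the same pathways, with the matching bases in capitals. Where the match is on the opposite strand, the capitals show its reverse complement. A match is a description of letters and not evidence of binding.
Igfbp2 promoter, chr1:72824230-72824529, plus strand: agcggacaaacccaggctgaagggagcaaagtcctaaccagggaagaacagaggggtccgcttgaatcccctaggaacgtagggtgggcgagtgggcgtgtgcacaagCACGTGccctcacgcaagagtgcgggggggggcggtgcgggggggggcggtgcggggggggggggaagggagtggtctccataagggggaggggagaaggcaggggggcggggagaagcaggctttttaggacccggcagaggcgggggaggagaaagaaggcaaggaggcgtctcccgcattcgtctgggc
Mgarp promoter, chr3:51396498-51396797, minus strand: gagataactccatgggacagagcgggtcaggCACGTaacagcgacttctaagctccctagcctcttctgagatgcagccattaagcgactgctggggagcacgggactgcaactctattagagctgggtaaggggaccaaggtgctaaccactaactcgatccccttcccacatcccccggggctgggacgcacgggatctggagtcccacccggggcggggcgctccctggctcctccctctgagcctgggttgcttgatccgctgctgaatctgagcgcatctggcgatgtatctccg
Bcat1 first promoter, chr6:145076108-145076407, minus strand: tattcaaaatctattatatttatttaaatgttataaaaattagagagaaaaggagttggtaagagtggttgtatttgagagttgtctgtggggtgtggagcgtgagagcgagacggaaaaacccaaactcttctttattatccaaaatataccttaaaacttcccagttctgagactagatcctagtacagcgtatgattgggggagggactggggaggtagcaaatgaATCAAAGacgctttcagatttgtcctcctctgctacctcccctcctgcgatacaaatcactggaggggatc
Bcat1 second promoter, chr6:145048763-145049062, minus strand: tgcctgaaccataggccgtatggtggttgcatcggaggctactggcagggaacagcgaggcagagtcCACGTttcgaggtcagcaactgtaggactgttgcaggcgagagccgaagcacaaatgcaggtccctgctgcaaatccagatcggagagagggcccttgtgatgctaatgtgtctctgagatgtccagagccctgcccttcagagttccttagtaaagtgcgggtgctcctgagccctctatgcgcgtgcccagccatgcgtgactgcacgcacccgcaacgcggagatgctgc

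Values are normalised counts that the authors scaled between libraries, and a library's values summed to between 26140227 and 45909885. The libraries correlated with the others at a median of 0.872 to 0.951 (log2 values, genes with a mean of at least 10). In 5 tumours, all of the male mouse, a library lay below 0.9: undivided tumours 5, 15, 17 and 18 and the minor clone of tumour 19. They include the lowest undivided level of *Otof* (1.59 normalised counts, tumour 15) and of *Mgarp* (0, tumour 18). The difference between dissected and undivided tumours was also computed without those 5 tumours, an alternative added after the values were seen. All 8 genes kept a higher mean in the clones, a sign the selection favours, with log2 differences of 0.43 to 2.83 against 0.46 to 2.74 with them.

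*Pnoc* and *Otof* were the furthest apart between the groups. *Pnoc* had a lowest, median and highest level of 1.18, 89.4 and 1575 normalised counts over 23 undivided tumours, 5.47, 884 and 5692 over 20 major clones and 121, 1184 and 7201 over 20 minor clones. *Otof* had 1.59, 132 and 1747 in undivided tumours, 13.5, 852 and 3058 in major clones and 159, 1080 and 4256 in minor clones. The ranges overlapped in every case: 12 of 40 clones for *Pnoc* and 9 of 40 for *Otof* lay above the highest undivided tumour, and 37 and 36 of 40 above the undivided median. On the log2(value + 1) scale, with mouse as a covariate and the clones of a tumour averaged, the difference of dissected against undivided tumours was 2.74 ± 0.60 (SE) for *Pnoc* and 2.65 ± 0.58 for *Otof*. The mean level of *Pnoc* on this scale was 6.75 ± 2.19 (SD, n = 23) in undivided tumours, 9.01 ± 2.38 (n = 20) in major clones and 9.95 ± 1.65 (n = 20) in minor clones, so the SD within a group was about as large as the step from undivided tumours to major clones. In a bulk tumour, fewer cells of a type and less RNA per cell cannot be told apart.

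*Igfbp2* and *Stc2*, the members that act on insulin-like growth factors, also had higher RNA levels in the clones. *Igfbp2* measured 22.7, 210 and 1594 normalised counts (lowest, median and highest) in undivided tumours, 198, 492 and 2162 in major clones and 122, 1000 and 6830 in minor clones. *Stc2* measured 67.3, 257 and 638, then 201, 420 and 917, then 164, 546 and 1893. *Igfbp2* was above the highest undivided tumour in 7 of 40 clones and *Stc2* in 13 of 40, and the log2 differences of dissected against undivided tumours were 1.83 ± 0.37 (SE) and 0.97 ± 0.17. The single highest *Igfbp2* and the single highest *Stc2* library were the same, female tumour 26 (minor clone), at 6830 and 1893 normalised counts. That library also had the highest share of *Rn18s*, a ribosomal RNA gene, among the clones, at 15.6% against a median of 6.19% in minor clones. Its part in these levels was not tested.

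*Fndc1* and *Mgarp* were low in undivided tumours, and each reached 0 there. *Fndc1* measured 0, 24.5 and 200 normalised counts in undivided tumours, 32.0, 107 and 210 in major clones and 9.19, 66.3 and 379 in minor clones. It was the only member with a higher median in major than in minor clones and was above the highest undivided tumour in 3 of 40 clones. *Mgarp* measured 0, 16.8 and 44.2, then 15.8, 35.8 and 112, then 9.84, 41.5 and 95.3. It exceeded every undivided tumour in 17 of 40 clones, the most of the 8 genes. The log2 differences were 1.85 ± 0.43 for *Fndc1* and 1.33 ± 0.28 for *Mgarp*.

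*Bcat1* was low in most undivided tumours. It measured 0, 2.14 and 20.1 normalised counts in undivided tumours, of which 21 of 23 were under 10 and 5 at 0, against 0.484, 11.5 and 94.1 in major clones and 0, 14.3 and 107 in minor clones. Its mean over all libraries was 14.2, and it passed the minimum of 10 through the clones, so it had to differ to be tested. *Mfsd12* varied least between libraries, with 470, 777 and 1192 normalised counts in undivided tumours, 617, 1005 and 1437 in major clones and 714, 1157 and 1471 in minor clones, and a log2 difference of 0.46 ± 0.10. The log2 difference of *Bcat1* was 1.97 ± 0.38. The share of genes called (adjusted p under 0.05, limma with Benjamini-Hochberg adjustment) was 0.121% of 16489 genes in dissected against undivided tumours, 0.0121% of 16510 in major clones against undivided and 3.70% of 16491 in minor clones against undivided. Of the 8 members 7, 0 and 8 were called there. These counts come from the selecting contrast and its 2 parts, so nothing is read from them. In major clones only 2 genes of all those tested were called. Major and minor clones share the same 23 undivided tumours.

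**Figure D1:**
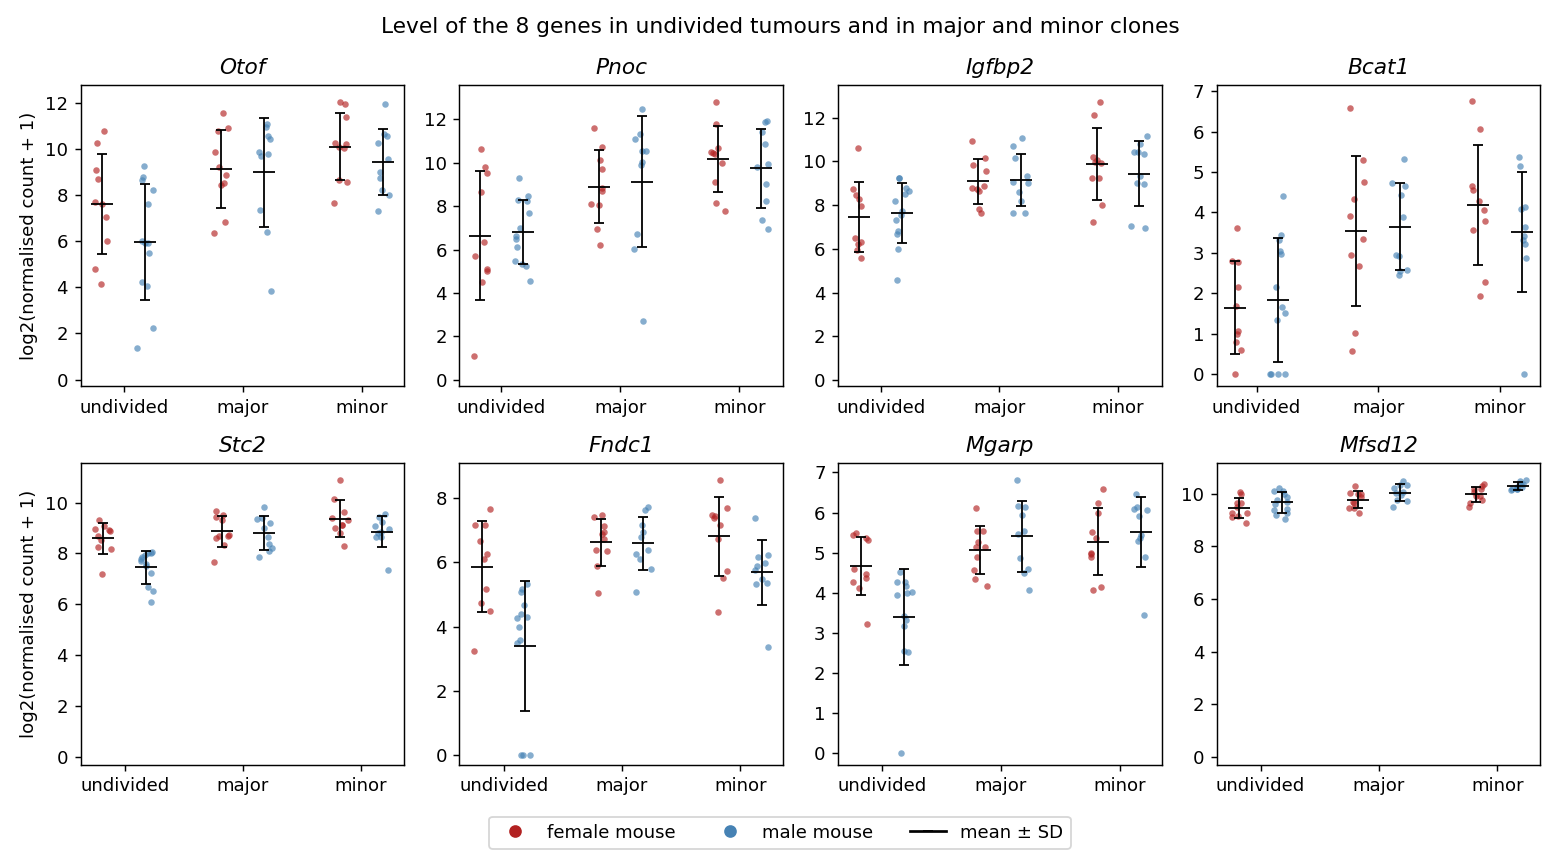
Level of each of the 8 genes as log2(normalised count + 1) in undivided tumours, major clones and minor clones, with each point a library coloured by mouse and bars for the mean ± SD of each mouse. Over both mice the mean of *Pnoc* was 6.75 in undivided tumours and 9.95 in minor clones, and the groups overlap for every gene.

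A few libraries carried much of the summed level of some genes, and leaving out any single tumour moved the difference between the groups by less than its SE. The highest 3 libraries held 52.8% of all *Otof*, 52.2% of *Pnoc*, 46.4% of *Fndc1*, 43.8% of *Bcat1* and 41.1% of *Igfbp2* among the undivided tumours, against 25.98%, 29.2%, 18.7%, 33.3% and 32.4% among the clones. The top 3 are a larger part of 23 libraries than of 40, which lowers the share in the clones, and the difference between the groups in this share was not tested. *Mfsd12* was spread most evenly, at 18.7% and 10.2%. Leaving out each of the 43 tumours in turn, the log2 difference of dissected against undivided tumours ranged from 2.44 to 2.83 for *Otof*, 2.45 to 2.99 for *Pnoc*, 1.71 to 1.99 for *Igfbp2* and 1.17 to 1.41 for *Mgarp*. With medians in place of means it was 2.28 for *Otof* and 3.34 for *Pnoc*, and 0.48 for *Mfsd12*. Counted by library, all 8 genes stood above the undivided median in 11 of 20 major and 13 of 20 minor clones and in 0 of 23 undivided tumours. At most 3 of the 8 did so in 12 of 23 undivided tumours and in 0 of 40 clones. At least 6 did so in 6 of 23 undivided tumours, 16 of 20 major and 19 of 20 minor clones. Undivided tumours reached up to 7 of the 8, and the lowest clone had 4. These counts restate the selecting contrast and are given without those of other genes. A library had at least 1 of the 8 genes above the highest undivided tumour in 12 of 20 major and 18 of 20 minor clones.

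**Figure D2:**
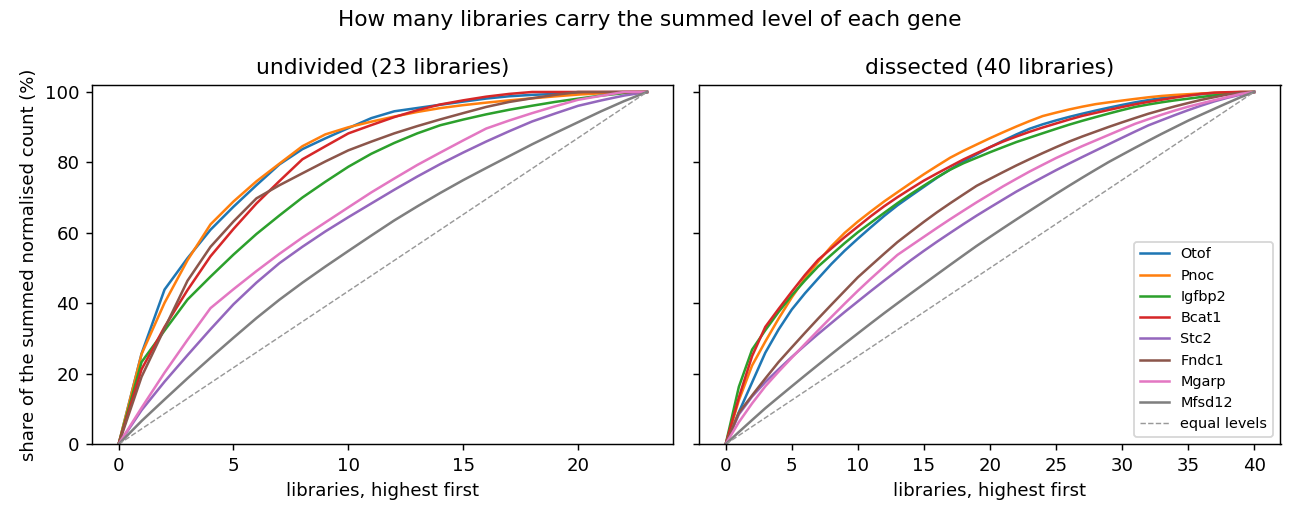
Cumulative share (%) of the summed normalised count of each gene held by the libraries, ranked from the highest, in undivided tumours and in clones, with the dashed line for equal levels. The *Otof* and *Pnoc* curves of the undivided tumours climb past 50% within 3 libraries, while *Mfsd12* runs near the dashed line.

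**Figure D3:**
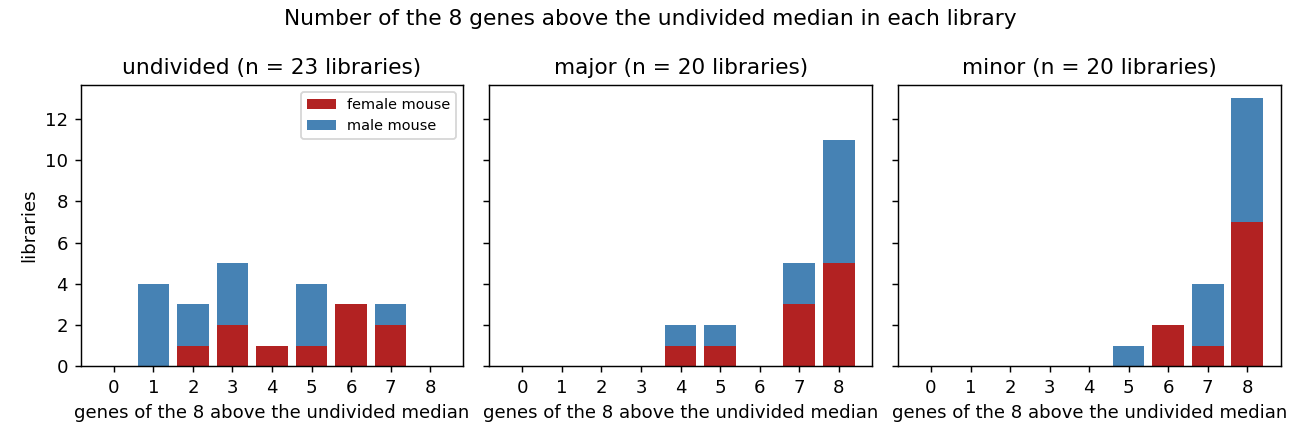
Number of the 8 genes above their undivided median in each library, for 23 undivided tumours, 20 major and 20 minor clones, coloured by mouse. All clones had at least 4 of the 8 above it. Of 23 undivided tumours, 12 had 3 or fewer and 6 had at least 6.

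Counted by tumour, both clones were above the undivided median in most tumours. This follows from the selecting contrast and does not measure whether the clones share a level. For *Fndc1* this held in 18 of 20 tumours, for *Pnoc*, *Bcat1* and *Stc2* in 17, for *Otof* and *Mgarp* in 16 and for *Igfbp2* and *Mfsd12* in 15. In 1 tumour neither clone was above it for *Igfbp2*, and for the other 7 genes there was no such tumour.

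The clones of each tumour were compared next, major minus minor, a contrast the selection did not use. Of 16428 genes tested with limma and the tumour as a block, 1.14% were called, and 0 of the 8 members were. *Mfsd12* was closest: it was higher in the minor clone in 14 of 20 tumours, with a log2 difference of major minus minor of -0.23 ± 0.07 (SE), an unadjusted p of 0.00356 and an adjusted p of 0.0745. *Pnoc* had a difference of -0.94 ± 0.42 (higher in the minor clone in 13 of 20 tumours, unadjusted p = 0.0346, adjusted p = 0.186). An exact two-sided Wilcoxon signed-rank test gave an unadjusted p of 0.00639 for *Mfsd12* and 0.0973 for *Pnoc*, and 0.277 to 0.571 for the other 6 genes. The interval of the difference was -1.73 to 0.33 for *Otof*, -1.37 to 0.30 for *Igfbp2*, -0.73 to 0.16 for *Stc2* and -0.25 to 0.96 for *Fndc1*, and each of these intervals includes 0. In the male mouse *Fndc1* was higher in the major clone in 8 of 10 tumours (mean 0.90), and in the female mouse in 4 of 10 (mean -0.19). *Stc2* and *Mgarp* were split evenly, at 10 of 20 tumours each way. The gaps furthest towards the minor clone were in female tumour 26 for *Igfbp2* (-5.11) and *Otof* (-5.02). Those furthest towards the major clone were in male tumour 28 for *Bcat1* (4.425), *Igfbp2* (3.66) and *Otof* (3.12). In male tumour 19 *Otof* was also far higher in the minor clone, at 428 normalised counts against 13.5 in the major clone. *Mfsd12* alone changed its call when a tumour was left out, with an adjusted p of 0.0406 without female tumour 19 and up to 0.131 otherwise.

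**Figure D4:**
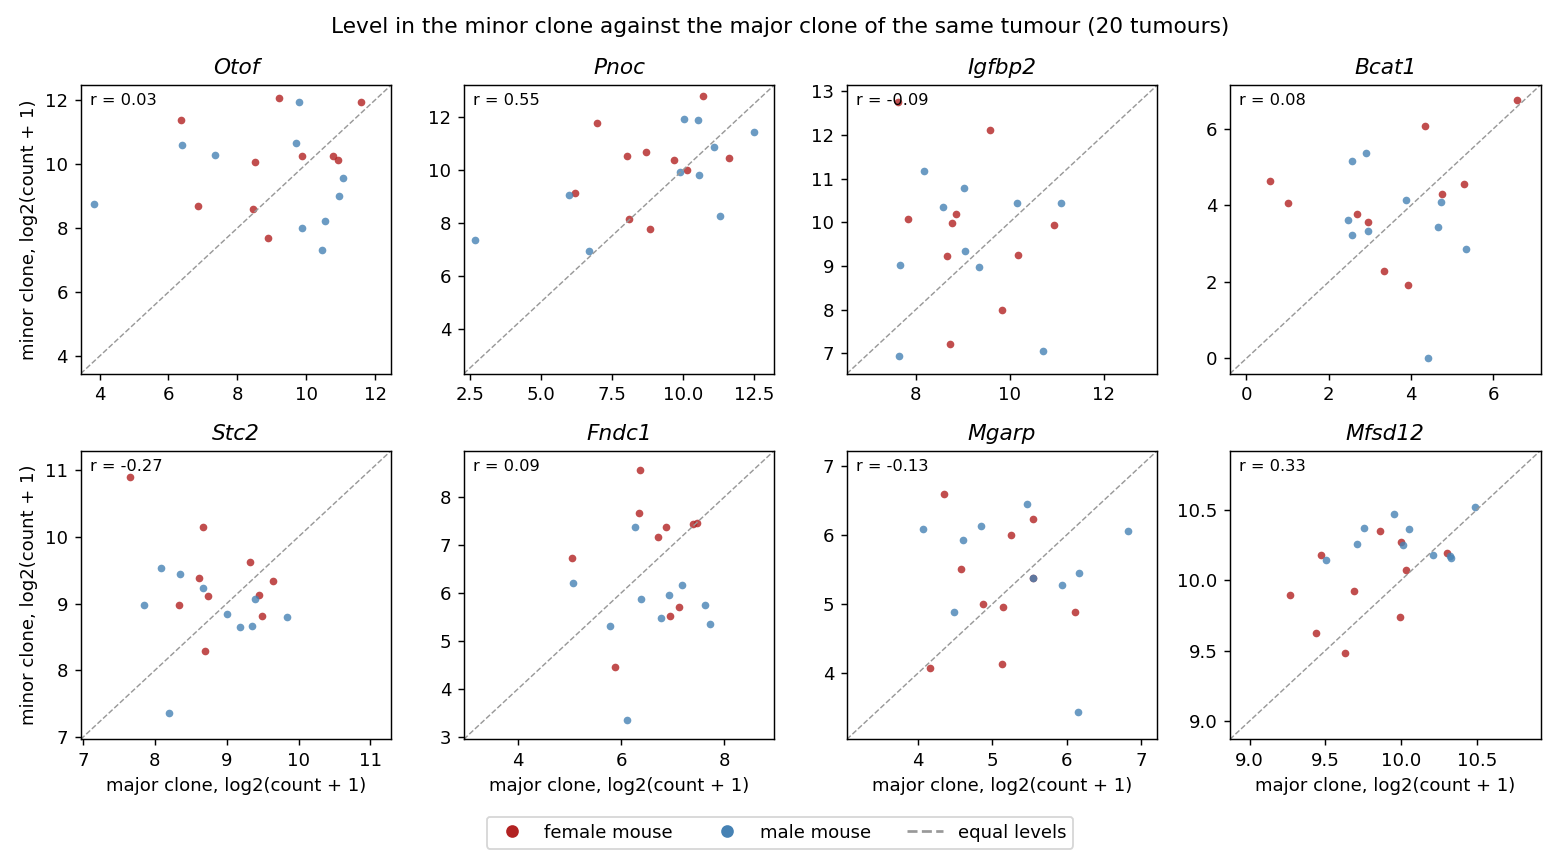
Level in the minor clone against the major clone of the same tumour for each gene, both as log2(normalised count + 1), with 20 tumours coloured by mouse, a dashed line of equal levels and Pearson's r after removal of the mean of each mouse and class. *Pnoc* shows the highest r, 0.55, and *Stc2* the lowest, -0.27.

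Whether the clones of a tumour share a level was measured as the correlation over 20 tumours of the major with the minor clone, after removal of the mean of each mouse and class. *Pnoc* had a Pearson r of 0.55 (Spearman rho 0.49), with a two-sided permutation p of 0.0175 for r and 0.0386 for rho, which became 0.140 and 0.309 after adjustment over the 8 genes. It was 0.28 in the 10 female and 0.69 in the 10 male tumours, and 0.45 without the 2 tumours farthest from the median. The other 7 genes had r from -0.27 (*Stc2*) to 0.33 (*Mfsd12*). No gene passed the adjusted threshold of 0.05, with the smallest adjusted p at 0.140 for r.

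Between the mice, 32.1% of 16489 genes were called with limma, and 3 of the 8 members were. *Fndc1* was higher in the female mouse by 1.58 ± 0.43 (SE, adjusted p = 0.00469) and *Stc2* by 0.74 ± 0.17 (adjusted p = 0.000940), and *Mfsd12* was lower there by a log2 difference of -0.25 ± 0.10 (adjusted p = 0.0378). *Fndc1* and *Stc2* were called in each of 43 fits that left out a tumour, and *Mfsd12* in 30 of 43. The *Mfsd12* call was also lost with libraries scaled to the same sum (adjusted p = 0.348) and with no filter on low values (adjusted p = 0.0507). Among undivided tumours alone, a split added after the values were seen, 19.4% of 16511 genes were called and *Bcat1* could not be tested. There *Fndc1* differed by 2.46 (adjusted p = 0.0179), *Stc2* by 1.13 (adjusted p = 0.00366) and *Mgarp* by 1.27 (adjusted p = 0.0406), so 3 of 7 members tested were called. Of the 13 male undivided tumours 4 were among those of low correlation, and of these *Mgarp* was at 0 in tumour 18 and *Fndc1* in tumours 5 and 15. Without the 5 tumours of low correlation the mouse difference over all tumours went from 0.54 to 0.30 for *Mgarp* (adjusted p = 0.133 and 0.319), from 1.58 to 1.22 for *Fndc1* (adjusted p = 0.0127 without them) and from 0.74 to 0.55 for *Stc2* (adjusted p = 0.00410 without them). Among dissected tumours alone, where 13.8% of 16428 genes were called, *Fndc1*, *Stc2* and *Mgarp* differed by 0.58, 0.29 and -0.29, and 0 of 8 members were called. The male undivided tumours had *Fndc1* medians of 18.3 normalised counts and *Stc2* of 206, against 71.8 and 437 in female ones, whereas the clones of both mice lay at 69.5 and 120 for *Fndc1* and at 481 and 557 for *Stc2* (male and female).

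Whether the gap between clones and undivided tumours differed between the mice was tested as the interaction of division with mouse. Of 16489 genes, 0% were called with limma, 2095 had an unadjusted p under 0.05, and 0 of the 8 members were called. The interaction (female minus male difference between clones and undivided tumours) was -1.56 ± 0.51 for *Mgarp* (unadjusted p = 0.00392, adjusted p = 0.232), -0.84 ± 0.32 for *Stc2* (0.0119, adjusted 0.269; -0.51 with an unadjusted p of 0.0762 without the 5 tumours of low correlation) and -1.88 ± 0.83 for *Fndc1* (0.0284, adjusted 0.331). The log2 difference between clones and undivided tumours was positive in each mouse alone for all 8 genes, from 0.43 to 2.89 in the female and from 0.50 to 3.23 in the male mouse. The selection, made on libraries of both mice, favours that sign. In the female mouse *Mgarp* differed by 0.51 ± 0.28 and in the male mouse by 2.07 ± 0.41.

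The labels place tumours in small intestinal segments SI10, SI20 and SI30. The undivided tumours were 12 of SI10 and 11 of SI20, and SI30 held 2 dissected tumours of the female mouse and was not tested. Female tumour 22, whose major clone is labelled SI20 and minor clone SI10, was also left out of the segment comparison, which held 40 tumours, but was kept as a pair elsewhere. By segment, 1.01% of 16494 genes were called in tumours labelled SI20 against SI10, with limma and with mouse and division as covariates, and 0 of the 8 members were. The widest estimates were for *Pnoc*, at 0.58 ± 0.64 (SE, adjusted p = 0.668), and *Otof*, at 0.50 ± 0.61 (adjusted p = 0.706), with intervals of -0.71 to 1.86 and -0.74 to 1.74. With segment as a further covariate and SI30 left out, the log2 differences of dissected against undivided tumours were 0.52 to 2.53 over the 8 genes.

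The 8 genes were compared with each other across libraries, as a description in which all points share the 2 mice. Over the 23 undivided tumours, with the mouse mean removed, the 28 pairs had a median r of 0.22, and 3 of them exceeded 0.5: *Fndc1* with *Mfsd12* (0.68), *Otof* with *Stc2* (0.54) and *Otof* with *Pnoc* (0.52). Over the 40 clones, with the mean of each mouse and class removed, the median was 0.39, and 10 pairs exceeded 0.5. The clones come in pairs from 20 tumours, and the tumour was not removed. No median over pairs of other genes is given beside these values. The highest were *Otof* with *Pnoc* (0.82), *Otof* with *Stc2* (0.72) and *Pnoc* with *Stc2* (0.68). *Mfsd12* stood apart in the clones, with r between -0.16 and 0.12 with the other 7 genes.

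**Figure D5:**
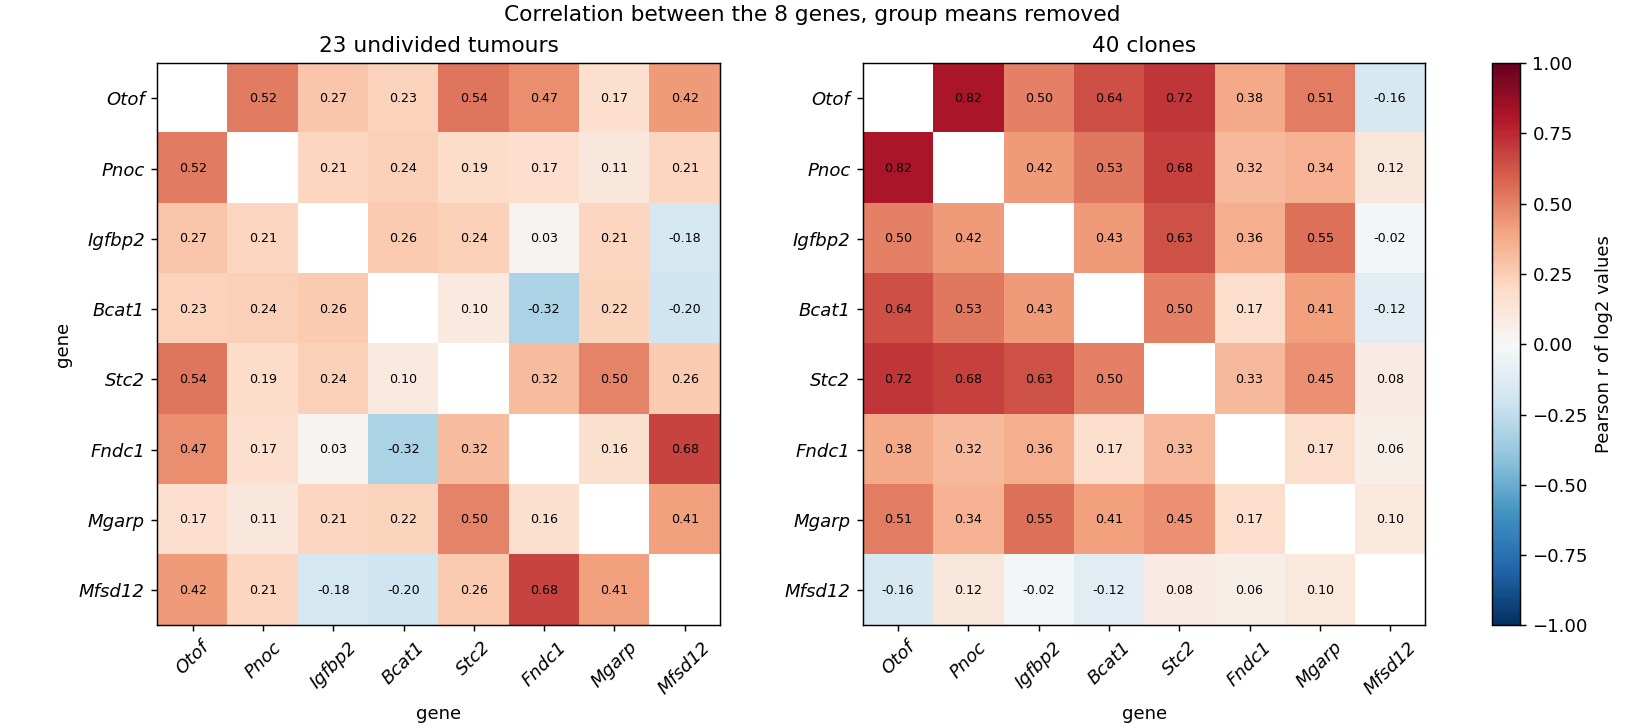
Pearson's r between each pair of the 8 genes over 23 undivided tumours (mouse mean removed) and over 40 clones (mean of each mouse and class removed), on log2 values. *Otof*, *Pnoc* and *Stc2* form the block of highest values in the clones, and *Mfsd12* is close to 0 with most genes there.

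Ranked by r over the 23 undivided tumours, the genes nearest to *Otof* were *Bpifb4* (0.87), *Sprr3* (0.79) and *Plod2* (0.79), and all 3 held at 0.67, 0.66 and 0.66 in the clones. Those nearest to *Stc2* were *Gm49325* (0.82), *Slc7a5* (0.77), a large neutral amino acid transporter, and *Igsf11* (0.74), with 0.15, 0.36 and 0.51 in the clones. For *Fndc1* they were *Etv5* (0.84), *Aox1* (0.84) and *Pald1* (0.83), and for *Mfsd12* *9430021M05Rik* (0.88), *Psapl1* (0.85) and *Gkn3* (0.83), all at 0.34 or below in the clones. *Pnoc* was nearest to *Pcdhga8* (0.67), *Chp1* (0.65) and *Chn1* (0.64), and *Mgarp* to *Gm4963* (0.78), *Gm7575* (0.78) and *F630040K05Rik* (0.77). For *Igfbp2* (*Mxd3*, *Dtwd2* and *Hyls1*, 0.71, 0.70 and 0.66) and *Bcat1* (*Gm37660* and *Adamtsl4*, 0.69 and 0.68) the r in the clones lay between -0.20 and 0.15.

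Genes of the members' pathways were read from the same fits. In dissected against undivided tumours, 0 genes were called in any of the 9 pathway lists. Of the insulin-like growth factor axis 0 of 18 were called, with the median log2 difference 0.12 against 0.01 over all genes, and *Igfbp5* and *Igfbp3*, also growth factor binding proteins, had differences of 0.98 ± 0.42 and 0.48 ± 0.24 (adjusted p = 0.266 and 0.337). *Stc1*, the paralogue of *Stc2*, had 1.29 ± 0.53 (adjusted p = 0.240). Of 5 opioid-family genes tested, *Penk*, which encodes proenkephalin, differed by 1.21 ± 0.34 (adjusted p = 0.114) and *Pcsk1*, which encodes a prohormone convertase, by -0.50 ± 0.18 (adjusted p = 0.184). In minor clones against undivided tumours *Penk* rose by 1.34 (adjusted p = 0.0428), with medians of 41.5 and 105 normalised counts, and *Pcsk1* fell by 0.84 (adjusted p = 0.0370).

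Hypoxia genes had a median log2 difference of 0.12 (0 of 19 called). The smallest p were those of *P4ha2* (0.64 ± 0.16, adjusted p = 0.0652) and *P4ha1* (0.31 ± 0.11, adjusted p = 0.174), both subunits of collagen prolyl hydroxylase. In minor clones against undivided tumours 2 of 19 were called, against 3.70% of all 16491 genes tested. They were *P4ha2* (0.80, adjusted p = 0.0113) and *Bnip3* (0.50, adjusted p = 0.0366), a mitophagy receptor. The list of amino acid stress genes under ATF4 had 0 of 23 called and a median of 0.12, with *Vldlr* (0.57, adjusted p = 0.189) and *Aldh1l2* (0.92, adjusted p = 0.189) at the top, and in minor clones *Cth*, an enzyme of cysteine synthesis, fell by 0.47 (adjusted p = 0.0491). Branched-chain catabolism had 0 of 25 called and a median of 0.00140, with *Slc7a5* at 0.30 (adjusted p = 0.221). Ferlins and exocytosis genes had 0 of 10 called and a median of 0.34, with *Myof*, a ferlin like *Otof*, at 0.64 ± 0.25 (adjusted p = 0.231) and *Syt7* at 0.43 (adjusted p = 0.267). A mixed list of fibronectin type III proteins and other matrix genes, such as collagens, had 0 of 16 called and a median of 0.42, with *Postn*, which has no such domain, at 1.46 and *Tnxb*, which has, at 1.12 (adjusted p = 0.189 and 0.208). The lists of lysosome and pigment transport (0 of 8, median 0.08, *Lamp1* -0.11 and *Lamp2* 0.12) and of stanniocalcin partners (0 of 4, median 0.63) had no calls either.

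Markers of cells that a tumour library can hold were measured in the same libraries. The 10 epithelial markers summed to 189888 to 743876 normalised counts in undivided tumours, 319684 to 627394 in major and 264000 to 619234 in minor clones. In dissected against undivided tumours 5 of the 10 were higher and 5 lower, with a median log2 difference of -0.017. *Cldn7* and *Cdx2*, the markers in it with the smallest p, differed by -0.20 and -0.25 there, and *Krt19* and *Krt18* by 0.28 and 0.21 (0 of 10 called), and *Cldn7* fell by 0.28 in minor clones (adjusted p = 0.0441). The 8 members correlated with the epithelial sum at -0.12 (*Fndc1*) to -0.57 (*Stc2*) over the clones and at -0.30 (*Igfbp2*) to 0.45 (*Bcat1*) over undivided tumours. The 10 stromal markers summed to 1321 to 36527 in undivided tumours (median 6359), 2586 to 27553 in major (median 11183) and 2170 to 28270 in minor clones (median 8980), with 0 of 10 called in dissected against undivided tumours, a median log2 difference of 0.53, and 8 higher and 2 lower. *Pdgfra* and *Dcn* were at 0.78 and 0.70 (adjusted p = 0.160 and 0.309) and *Thy1* at -0.40 (adjusted p = 0.327). *Fndc1* correlated with the stromal sum at 0.60 over undivided tumours and at 0.27 over clones. For *Mfsd12* these values were 0.46 and 0.21, for *Otof* 0.43 and -0.02 and for *Stc2* -0.0094 and -0.32. The other members lay at -0.06 (*Mgarp*) to 0.27 (*Pnoc*) over undivided tumours and at -0.13 (*Igfbp2*) to 0.16 (*Mgarp*) over clones.

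The 7 endothelial markers had sums with medians of 4253, 6600 and 8212 normalised counts in undivided tumours, major and minor clones, mostly *Cdh5* (2166, 4583 and 5533). Over undivided tumours the sum correlated with *Stc2* at 0.58, *Otof* and *Mfsd12* at 0.57, *Fndc1* at 0.55, *Pnoc* at 0.46, *Mgarp* at 0.31, *Bcat1* at -0.15 and *Igfbp2* at -0.19. Over the clones it correlated with *Pnoc* at 0.68, *Otof* at 0.62, *Fndc1* at 0.48 and *Stc2* at 0.43, and with the other 4 genes at 0.03 (*Mfsd12*) to 0.21 (*Mgarp*). *Otof* and *Pnoc* correlated with *Cdh5* at 0.64 and 0.70 over the clones, with *Tek* at 0.47 and 0.59, and with *Vwf* at 0.45 and 0.45. With the other 4 markers the values were 0.21 and 0.19 (*Kdr*), 0.12 and 0.04 (*Pecam1*), 0.11 and 0.08 (*Eng*) and 0.0097 and 0.065 (*Emcn*). Over undivided tumours *Otof* and *Pnoc* correlated with *Cdh5* at 0.63 and 0.35, *Tek* at 0.51 and 0.31, *Vwf* at 0.14 and 0.34, *Kdr* at 0.48 and 0.28, *Pecam1* at 0.43 and 0.27, *Eng* at 0.52 and 0.34 and *Emcn* at 0.40 and 0.30. In minor clones against undivided tumours *Cdh5* rose by 1.12 (adjusted p = 0.0473), and 4 of the 7 markers were higher and 3 lower, with a median of 0.15. In dissected against undivided tumours 0 of the 7 were called and 7 were higher, with a median of 0.24 (*Tek* 1.13, adjusted p = 0.156, and *Cdh5* 0.86, adjusted p = 0.234). The part of epithelial, stromal and endothelial cells in the members' levels was not tested.

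The 9 enteroendocrine markers had sums with medians of 5433, 4980 and 3012 in undivided tumours, major and minor clones. In dissected against undivided tumours 0 of 9 were called (median -0.61, *Tph1* -0.78, adjusted p = 0.0657, and *Sct* -0.65, adjusted p = 0.120). In minor clones 6 of 9 were called, all of them lower, against 3.70% of all 16491 genes tested (235 higher and 375 lower). Among the 6 were *Chga* (-0.93, adjusted p = 0.0155) and *Tph1* (-1.13, adjusted p = 0.00862). Within tumours *Chgb* and *Tph1* were higher in the major than in the minor clone, by 0.89 (adjusted p = 0.0207) and 0.72 (adjusted p = 0.0334), and the other 7 did not pass the test. There 1.14% of all genes were called, and 0 in the other marker lists. Without a call, 10 of 10 epithelial, 9 of 10 stromal, 8 of 8 smooth muscle and 9 of 9 immune markers were higher in the major clone. For endothelial markers it was 4 of 7, and for enteric neuron and glia markers 2 of 4. Over undivided tumours the members correlated with the enteroendocrine sum at -0.48 (*Stc2*) to 0.04 (*Bcat1*), with *Pnoc* at -0.42, *Fndc1* at -0.40 and *Otof* at -0.39. Over clones the members lay between -0.19 (*Bcat1*) and 0.0065 (*Pnoc*). The 9 immune markers had sums with medians of 4282, 3879 and 3148 (0 of 9 called, *Cd3e* -0.74, adjusted p = 0.148, and *H2-Aa* -0.52, adjusted p = 0.313), and *Cd3e* fell by 0.94 in minor clones (adjusted p = 0.0437). The 8 smooth muscle markers had medians of 1951, 1852 and 1369 (0 of 8 called, *Cnn1* -0.37, adjusted p = 0.679, and *Lmod1* -0.19, adjusted p = 0.869), and the 9 enteric neuron and glia markers 1438, 1426 and 1291. Of the latter 4 could be tested and 0 were called, with *Tubb3*, a neuronal tubulin, at 1.24 (adjusted p = 0.0851) and *Uchl1* at 0.72 (adjusted p = 0.359) higher and *Ret* (-0.21) and *S100b* (-0.0039) lower, while in minor clones *Tubb3* rose by 1.35 (adjusted p = 0.0193). The share of *Rn18s*, a ribosomal RNA gene that poly(A) selection should remove, had medians of 3.12%, 1.24% and 6.19%, and it correlated over undivided tumours with *Mfsd12* at -0.61, *Fndc1* at -0.48 and *Otof* at -0.47, and over clones with them at -0.27, -0.17 and 0.011, with *Stc2* at 0.30 and with *Igfbp2* at 0.25, and its part in the members' levels was not tested.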

How the data were processed

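Poly(A)-selected RNA from 63 samples was sequenced by the authors, trimmed with Trimmomatic 0.39 and quantified with Salmon 1.9.0 against GRCm39, per the study's methods and processing notes. The deposited signal is one table of normalised counts, 24766 genes by 63 libraries, which the authors scaled between libraries. The scaling is taken as deposited. Major and minor class came from the study's source data, matched by sample title, and not from the GEO labels. The members and gene lists were chosen with earlier results of these data known.

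Values were analysed as log2(value + 1) in R 4.3.3 with limma 3.58.1 (empirical Bayes with trend) on genes whose mean reached 10, with Benjamini-Hochberg adjustment over all genes tested and a threshold of 0.05. A fold on this scale understates the change of low genes. Clones of a tumour were averaged against undivided tumours with mouse as a covariate. Major and minor clones were fitted with the tumour as a block, since they share a tumour: deviations of the 2 clones correlated with a median r of 0.262, from 0.0253 to 0.618, and 17 of 20 tumours exceeded 0.1. Tumours of 2 mice are the replicates, so p-values measure the spread between tumours of these animals. Correlations between clones used 100000 permutations within mouse. Estimated reads ran from 13083428 to 52169232 per library. The named genes were the 8 members, the 3 nearest to each, and of each list those called in dissected against undivided tumours or else the 2 of smallest p. Of these, 2 genes are not reported here. Genes named for minor clones, and *Chga*, were chosen after their values were seen. Also named outside the rule were *Krt18*, *Krt19*, *Thy1*, *Ret*, *S100b*, *Chgb* and the endothelial markers other than *Tek* and *Cdh5*. Alternatives covered the pseudocount, filter, scaling, segment, mouse, block and each tumour left out. The fits were tested on simulated data.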

Additional observations from a re-analysis of the deposited data

Results flagged for a closer look

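In the 10 minor clones of the male mouse, the lowest library lay far below the others for 4 genes on the log2(value + 1) scale. The gap to the next library was 0.48 to 0.59 of the whole range on that scale. The counts below are not on that scale, and those of *Bcat1* are near the floor. *Bcat1* was at 0 normalised counts in the minor clone of tumour 28, against 6.29 in the next lowest. *Mgarp* was at 9.84 in the same library, against 28.4. *Stc2* was at 164.2 in the minor clone of tumour 20, against 399.3. *Fndc1* was at 9.193 in the minor clone of tumour 19, against 38.8, and that library was also the only clone whose correlation with the others was below 0.9. These were 4 of 40 groups examined, and chance flags about 1 in 20 groups.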

How the results depend on the processing

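All 304 values of the 8 genes against undivided tumours kept their sign. The selection in these same libraries favours that sign, so nothing is read from it. No test was read for these 304 values, so none of them could gain or lose a call. Their size could still move: *Mgarp* differed by 1.335 over both mice and by 0.51 in the female mouse alone. Of 663 values under alternatives, with these 304 among them, 26 changed sign, 7 lost and 2 gained a call, and 628 did neither. Counts of genes called moved more. Dissected against undivided tumours gave 20 calls, 59 after quantile normalization, 35 with libraries scaled to the same sum, 8 with segment as a covariate, 0 in each mouse alone, 40 without the 5 tumours of low correlation, 129 with the tumour as a random block, and 7 to 71 with each tumour left out. Major clones gave 2, 1 after quantile normalization, 0 with no filter, same-sum scaling, the segment covariate, either mouse alone or without the 5 tumours, and 0 to 25 with each tumour left out. Minor clones gave 610, 323 with segment, 0 in the female mouse, 375 without the 5 tumours and 274 to 959. Major against minor gave 188 with the tumour as a replicate block and 0 with no replicate block, 85 with no filter, 366 with quantile normalization, 292 with same-sum scaling, 0 and 33 in the female and male mouse, and 25 (without male 20) to 859 (without female 19). The mouse difference gave 5287, 3211 in undivided and 2268 in dissected tumours alone, and 4848 to 5470. Segment gave 167, 256 with same-sum scaling, 0 in the female mouse, 104 without the 5 tumours and 119 to 299. Division by mouse gave 0, 46 with same-sum scaling, 1 with segment and 0 to 2. The share of higher calls went from 75% to 88.6% (dissected), 38.5% to 63.3% (minor), 52.7% to 72.8% (mouse) and 34.7% to 63.3% (segment) under same-sum scaling, which moved the median of all genes in dissected tumours from 0.00999 to 0.101, and from 58.5% to 38.5% for major against minor under quantile normalization. Without the 5 tumours it was 53.9% for minor clones.

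None of the values that changed sign had passed the threshold. For major against minor they were *Bcat1* (0.13, male mouse) and *Fndc1* (-0.19, female mouse). For the mouse difference they were *Pnoc* (0.013 with pseudocount 5, 0.058 same-sum, 0.099 dissected alone, -0.28 to 0.27 with each tumour left out), *Igfbp2* (0.00023, 0.11, 0.19, 0.024 without the 5 tumours, -0.18 to 0.11), *Bcat1* (-0.35 quantile, -0.067 without the 5 tumours, -0.11 to 0.15) and *Mgarp* (-0.29 dissected alone). For segment they were *Otof* (-0.37 female mouse, -0.25 without the 5 tumours), *Igfbp2* (-0.013 without the 5 tumours, -0.038 to 0.26), *Fndc1* (-0.52 female), *Mgarp* (0.035 female, -0.23 to 0.067) and *Mfsd12* (-0.12 female, -0.0036 to 0.061). For division by mouse they were *Pnoc* (-0.33 to 0.73) and *Mfsd12* (0.069 with segment). The cause was not tested. *Bcat1* and *Mgarp* were not tested with a mean of at least 50. Depth limits *Bcat1* most, since 21 of 23 undivided tumours were under 10 normalised counts.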
